A study of Mus musculus with 16 samples.

Results

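Splenic neutrophils were selected on their antibody counts, as the droplets with at least 200 Ly6G and at least 50 CD11b counts, and 89 of 7097 droplets met both limits (1.25%). The cells came from spleens of 9-month-old female BALB/cJ mice and were measured by CITE-seq, in which each droplet yields counts of messenger RNA and of antibodies that carry a DNA tag. The labels name 2 sources, Main1 and Main2, with 4 RNA and 4 antibody-tag samples each, and give no treatment, genetic change or second strain. Each source was counted as 1 library. Main1 held 37 of the neutrophil droplets (1.16% of its 3179, exact 95% binomial interval 0.821 to 1.60) and Main2 held 52 (1.33% of its 3918, interval 0.993 to 1.74), with intervals that cover counting error only. Nothing in the labels says that Main1 and Main2 came from separate animals. Every p-value below thus rests on how far differences between populations varied between these 2 libraries, which may be technical. That variance was mostly or wholly pooled over genes. The gate was compared with 511 other droplets at or above the CD11b limit whose Ly6G count was under 200 (245 in Main1 and 266 in Main2), called CD11b+ Ly6G-low below, and with all 7008 other droplets.

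Neutrophils are short-lived phagocytes that are made in the bone marrow and held in reserve in marrow, blood and spleen. As they mature they fill several kinds of granule in turn: azurophil granules first, then specific granules with antimicrobial proteins, then gelatinase granules. The messenger RNAs of granule proteins are made in the stage that packs them and are lost afterwards, while receptors for chemokines that release the cell into blood come late. S100A8 and S100A9, which pair to form calprotectin, are the main cytosolic proteins of the cell at most of these stages.

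The contrast inside the gate is between early genes, Ngp (neutrophilic granule protein), Camp (the cathelicidin precursor) and Ltf (lactoferrin), which encode specific granule proteins, and late genes, Retnlg (a resistin-like secreted protein), Mmp9 (gelatinase B) and Cxcr2 (a CXC chemokine receptor). Since each trio was read as a block, the 150 bases before the transcription start are shown for the 5 of these genes in the RefSeq promoter table of GRCm38.p6, 5′ to 3′ on the gene's strand, with RefSeq starts that can differ from the gene spans given later. They lie at chr9:110419658-110419807 (Ngp, plus strand), chr9:109849457-109849606 (Camp, minus strand), chr9:111019142-111019291 (Ltf, plus strand), chr16:48872458-48872607 (Retnlg, plus strand) and chr1:74153844-74153993 (Cxcr2, plus strand). Capitals mark matches, on either strand, to TTNNGNAA, a form of the C/EBP motif, or to GAGGAA, a form of the ETS motif.
Ngp: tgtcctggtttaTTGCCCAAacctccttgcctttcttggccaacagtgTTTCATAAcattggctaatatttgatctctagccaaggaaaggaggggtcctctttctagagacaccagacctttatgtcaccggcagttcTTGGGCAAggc
Camp: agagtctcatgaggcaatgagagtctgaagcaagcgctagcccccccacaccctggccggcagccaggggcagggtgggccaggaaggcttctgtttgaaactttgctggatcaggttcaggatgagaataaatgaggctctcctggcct
Ltf: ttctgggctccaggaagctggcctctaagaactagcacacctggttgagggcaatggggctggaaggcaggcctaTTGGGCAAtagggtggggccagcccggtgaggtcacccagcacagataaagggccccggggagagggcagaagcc
Retnlg: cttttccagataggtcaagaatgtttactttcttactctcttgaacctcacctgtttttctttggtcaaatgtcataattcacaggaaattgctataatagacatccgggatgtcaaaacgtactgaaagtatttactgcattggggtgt
Cxcr2: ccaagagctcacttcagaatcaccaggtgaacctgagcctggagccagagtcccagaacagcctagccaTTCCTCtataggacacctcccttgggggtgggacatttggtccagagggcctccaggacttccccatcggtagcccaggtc
The Ngp window held 3 C/EBP matches, beginning 138, 102 and 11 bases before the start, and the Ltf window held 1, at 75 bases. The Cxcr2 window held 1 ETS match, at 81 bases, and the Camp and Retnlg windows held 0 of either. TTNNGNAA was present in 22.7% and GAGGAA in 14.5% of 32851 windows of the same length, so both are common letters. TGTGGT, a form of the RUNX motif present in 8.4% of windows, had 0 matches in the 5. A match is a description of the letters and not a measured site.

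The values that chose the members are a description only. Ly6G counts in the gate had a median of 1593 (210 to 3648), against medians of 10 in CD11b+ Ly6G-low droplets and 6 in all other droplets. CD11b counts had medians of 1107, 161 and 5 in the same order. The lowest Ly6G counts inside the gate were 210, 223 and 237, and the highest among all droplets outside it were 194, 192 and 187. The lowest CD11b count inside was 111. Since no droplet outside reached 200 Ly6G counts, the CD11b limit removed none. Of the antibodies the gate did not use, CD44, an adhesion receptor, had a median of 808 in the gate, 266 in CD11b+ Ly6G-low droplets and 47 in all others. Ly6C medians were 282, 43 and 13, and medians for CD16/32, the low-affinity Fc receptors, were 196, 125 and 78. MHCII went the other way, with medians of 40, 269 and 767.5, and F4/80, a macrophage antigen, had 17 in the gate and 58 in CD11b+ Ly6G-low droplets. Gate droplets carried more antibody counts in total (median 5958) than CD11b+ Ly6G-low droplets (4095) or all others (3222), and its part in these differences was not tested.

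**Figure D1:**
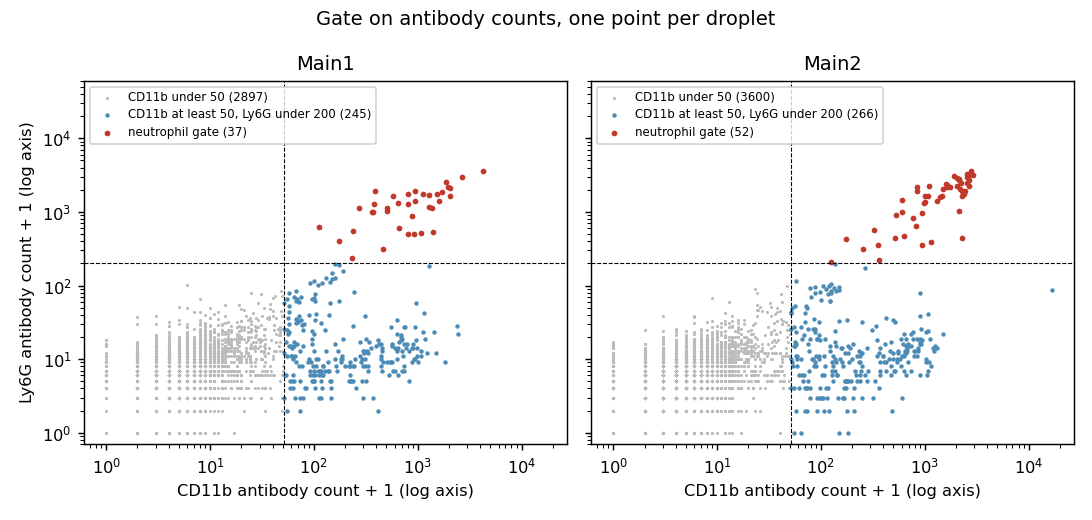
Ly6G against CD11b antibody counts per droplet on log axes, with the gate drawn as lines and droplets coloured by population. The 89 gate droplets sit between 210 and 3648 Ly6G counts, above medians of 10 in CD11b+ Ly6G-low droplets and 6 in all others.

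The name neutrophil held for most of these droplets but not for all of them. S100a8 and S100a9 together made up 17.0% of all UMIs (unique molecular identifiers, one per captured RNA molecule) in the gate, 16.7% in Main1 and 17.3% in Main2. The share was 0.340% in CD11b+ Ly6G-low droplets and 0.0566% in all other droplets. At least 50 UMIs of the pair were found in 68 of the 89 gate droplets (76.4%), 30 in Main1 and 38 in Main2. The remaining 21 passed on antibody counts alone, and 17 of them had at least 100 counts of B220 or CD3, antigens of B and T cells. In all, 28 gate droplets carried B220 or CD3 at that level, 11 of them with at least 50 UMIs of the S100 pair. The pair made up 2.80% of UMIs in those 28 and 26.0% in the other 61. Of 7 gate droplets with over 20000 antibody counts, 6 were among the 21 with little S100a8 or S100a9. No doublet caller was run and no droplet was removed. Many of the results below are also given without droplets of B220 or CD3 at 100 or more, which leaves 61 in the gate. In the tests against other droplets, this setting also removed such droplets from the reference.

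Markers of other cell types were present in the gate, and the sums for B and T cells were lower without the B220 or CD3 droplets. The 12 B cell markers summed to 8839 CPM (counts per 1e6 UMIs) in Main1 and 9267 in Main2, and to 2023 and 4022 without the B220 or CD3 droplets. In all other droplets the sums were 37795 and 40188. The 12 T cell markers summed to 1466 and 1518 CPM, and to 330 and 453 without those droplets. Of 11 measured monocyte markers, whose sums were 1606 and 1113 CPM in the gate and 2010 and 2595 in CD11b+ Ly6G-low droplets, F13a1 was at 0 UMIs in the gate. The 12 macrophage markers summed to 233 and 493 CPM against 981 and 1007, with Adgre1, Axl and Mertk at 0. NK cell markers summed to 86.7 and 166 CPM against 2144 and 2463. Plasma cell markers were at 4919 CPM in Main1 and 410 in Main2. The Main1 signal came mainly from 6 droplets with under 5 UMIs of the early and late genes, at 12972 CPM. In Main1 the early and late droplets described below were at 279 and 544 CPM. Without the B220 or CD3 droplets plasma cell markers were at 5535 CPM in Main1, where 1 of those 6 droplets was left, and 270 in Main2. Monocyte markers were not lower without the B220 or CD3 droplets, at 2273 and 1489 CPM, and macrophage markers were at 170 and 644 CPM. These 6 lists thus give the range of other RNA in the gate, and its part in each difference between genes was not tested beyond the values without the B220 or CD3 droplets.

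Outside the gate, 5 of 7008 droplets had at least 50 UMIs of S100a8 and S100a9, all of them at or above the CD11b limit and none with B220 or CD3 at 100. Their Ly6G counts were 1, 14, 40, 79 and 185 and their CD11b counts 488, 561, 1064, 903 and 1275, in the same order. The S100 pair made up 1.99%, 18.7%, 17.6%, 29.0% and 23.8% of their UMIs. In 4 of them early genes were high, with 188, 1357, 718 and 1355 UMIs of Ngp, Camp and Ltf together, beside 0, 1, 0 and 0 UMIs of the late genes. These 4 droplets held 3618 of the 3740 early-gene UMIs in the CD11b+ Ly6G-low population (96.7%), and the 5 held 94.2% of its S100a8 and S100a9 UMIs. They were left in the reference, since they were found by their RNA, so they set most of the reference level of these genes in the differences reported next.

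The main mRNA comparison set the summed UMIs of the gate (150018 in Main1 and 180533 in Main2) against those of CD11b+ Ly6G-low droplets in the same libraries. It asks which transcripts set Ly6G+ cells apart from the other CD11b+ droplets of the spleen, which held markers of monocytes, macrophages, NK cells and B cells. Median depth was 2526 UMIs per gate droplet (1098 to 17009) and 2652 per reference droplet. Of 5165 genes with at least 50 UMIs over both populations, 526 passed edgeR's quasi-likelihood test at a Benjamini-Hochberg adjusted p under 0.05 (10.2%). Of these, 373 were higher in the gate (7.22%) and 153 lower (2.96%), and the median log2 fold change over all genes tested was -0.05. This split rests on the trimmed-mean scaling, which allows for the large share of S100a8 and S100a9. With library size as the only scaling, 257 genes were higher and 949 lower, and the median moved to -0.56. The log2 fold changes below are relative to the trimmed-mean scaling, and none of the listed genes called higher turned negative under the other scaling.

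Specific granule genes were higher throughout. All 13 of its members that could be tested were higher (of 15 listed, with Orm1 too low to test and Dmkn not analysed here), with a median log2 fold change of 4.85, and all 13 passed again without the B220 or CD3 droplets. Ngp (chr9:110419747-110423012, plus strand) was at 39835 CPM in Main1 and 36043 in Main2, against 920.2 CPM in Main1 and 1228 in Main2 in the reference (log2 fold change 5.66, SE 0.16, adjusted p = 1.01e-09). Camp (chr9:109847379-109849617, minus strand) was at 24110.4 CPM in Main1 and 24815 in Main2, against 663 CPM in Main1 and 718 in Main2 (log2 fold change 5.65, SE 0.12, adjusted p = 1.58e-10). Both early genes were thus far higher in each library, and the reference level is the one that 4 droplets set. Ltf (chr9:111019271-111042767, plus strand) was at 4926 CPM in Main1 and 3866 in Main2, against 90.1 CPM in Main1 and 29.5 in Main2 (log2 fold change 6.83, SE 0.26, adjusted p = 1.48e-08). Lcn2, which encodes the iron-siderophore binder lipocalin 2, was at 4393 CPM in Main1 and 4952 in Main2, against 71.3 CPM in Main1 and 50.7 in Main2 (log2 fold change 6.77, SE 0.19, adjusted p = 1.01e-09). Lcn2 levels in the libraries did not overlap between populations and neither did those of Ltf. With 2 libraries each this adds little to the values, and the share of all tested genes without overlap was not counted. The collagenase gene Mmp8 had a log2 fold change of 5.84, Wfdc21 of 6.15, Anxa1, which encodes the inflammation-limiting annexin A1, of 4.85, and Chil3, a chitinase-like protein, of 4.49. Cd177, a surface glycoprotein of neutrophils, was at 3.77 and Hp, haptoglobin, at 3.48. Cebpe, which encodes the transcription factor C/EBP epsilon needed to form specific granules, was higher as well, at 427 CPM in Main1 and 521 in Main2 against 23.1 CPM in Main1 and 36.9 in Main2 (log2 fold change 4.47, SE 0.23, adjusted p = 1.82e-07).

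**Figure D2:**
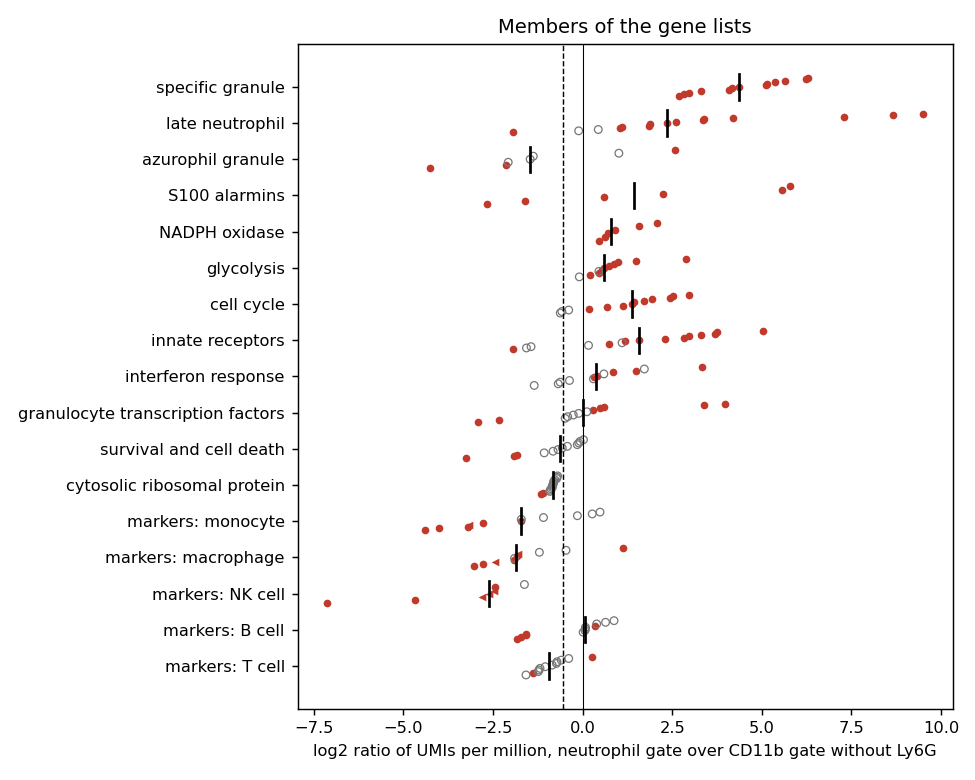
Log2 ratio of pooled CPM in the neutrophil gate over CD11b+ Ly6G-low droplets for each tested gene (points), by gene list (filled where the adjusted p was under 0.05, bars at list medians), with left-pointing triangles for genes at 0 UMIs in the gate drawn at their bound and a dashed line at the median of all tested genes (-0.55 on this scale). All 13 specific granule genes lie right of the line, and the NK cell list, with a median of -2.61 on this scale, lies left of it.

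Late neutrophil genes were also higher, with exceptions. Of 15 tested members of 18 listed, 12 were higher and 1 lower, with a median of 2.72, and 11 of 14 were higher and 1 lower without the B220 or CD3 droplets. Retnlg (chr16:48872621-48874496, plus strand) had the largest log2 fold change of the named genes, at 6106 CPM in Main1 and 4653 in Main2 against 7.34 CPM in Main1 and 7.38 in Main2 (log2 fold change 9.96, SE 0.21, adjusted p = 1.58e-10). It came from 1756 UMIs in the gate and 15 in the reference. Mmp9 (chr2:164940780-164955850, plus strand) was at 253 CPM in Main1 and 210.5 in Main2, against 1.05 CPM in Main1 and 0 in Main2 (log2 fold change 8.85, SE 0.55, adjusted p = 9.15e-07). Cxcr2 (chr1:74153989-74161246, plus strand) was at 100 CPM in Main1 and 199 in Main2, against 9.43 CPM in Main1 and 7.38 in Main2 (log2 fold change 4.63, SE 0.43, adjusted p = 2.97e-05). The stefin-like gene BC100530 reached 9.43, with 24.4% of its UMIs in 1 droplet, and the related Gm5483 reached 8.59. Near-identical members of the stefin A cluster can share reads, so both values are uncertain. Csf3r, the receptor for granulocyte colony-stimulating factor, was at 3.81, Mxd1, a MAX-binding repressor, at 3.85, and Il1b, interleukin-1 beta, at 2.72. Wfdc17 was lower (-1.52), and the chemokine gene Ccl6 did not pass (log2 fold change 0.35, adjusted p = 0.254 by edgeR's quasi-likelihood test).

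Azurophil granule genes, which belong to the promyelocyte stage, did not share this pattern. Of 7 tested members of 10 listed, 1 was higher, 2 were lower and 4 did not pass, with a median of -0.96. Fcnb, ficolin B, was the one that was higher (3.11). Ctsc, the protease that activates granule serine proteases, was lower at -1.63. Elane, neutrophil elastase, was lower at -4.38, from 2 UMIs in the gate against 353 in the reference, and 1 reference droplet held 65.7% of the latter. Mpo, myeloperoxidase, Ctsg and Prss57 were not analysed here.

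The S100 genes of the list did not move together. S100a8 (chr3:90668978-90670035, plus strand) was at 106794 CPM in Main1 and 112777 in Main2, against 1793 CPM in Main1 and 2758 in Main2 in the reference (log2 fold change 6.13, SE 0.15, adjusted p = 3.94e-10). S100a9 (chr3:90692632-90695721, minus strand) was at 60186 CPM in Main1 and 60443 in Main2, against 853 CPM in Main1 and 1309 in Main2 (log2 fold change 6.33, SE 0.17, adjusted p = 7.22e-10). S100a11 was higher at 2.74 and S100a6 at 1.10. S100a10, the partner of annexin A2, was lower at -1.12 and S100a4 lower at -2.17. The 6 genes thus gave 4 higher and 2 lower, with a median of 1.92, and the same 6 calls were made under library-size scaling.

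Genes of the oxidative burst and of migration were higher in the gate by smaller amounts. In the NADPH oxidase, the complex that makes superoxide, Ncf1 (2.59), Ncf4 (2.07), the GTPase gene Rac2 (1.40), Cybb (1.22) and Cyba (1.13) were higher. Of 13 adhesion and trafficking genes, 8 were higher and 1 lower, with a median of 1.62, falling to 5 higher and 1 lower of 10 without those droplets. This list holds Ly6g and Itgam, whose products define the gate, so their values (log2 fold changes 8.29 and 2.32) are a description. Ccr1, a receptor for inflammatory chemokines, was at 3.19, Cxcr4, the receptor that retains neutrophils in marrow, at 2.05, and Lrg1, a secreted glycoprotein stored in neutrophil granules, at 5.74.

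Innate receptors gave 10 higher and 1 lower of 15 tested members (24 listed), with a median of 2.04, and 9 higher and 1 lower of 13 without the B220 or CD3 droplets. Fpr2, a formyl peptide receptor, had a log2 fold change of 5.48, Trem3 of 4.23, C5ar1, the receptor for complement C5a, of 4.11, Clec4e (Mincle) of 3.73 and the inhibitory receptor Pilra of 3.44. Among the listed receptors, Tlr2, Tlr4 and Fpr1 were too low to test. Of 10 growth factor and cytokine receptors, 2 were higher, Csf3r and Csf2ra, with a list median of 0.41 (-0.10 and Csf3r alone under library-size scaling), and 1 was higher and 1 lower of 9 without the B220 or CD3 droplets. Among 6 cytokine genes, Il1b, Osm and Hdc, the last encoding the enzyme that makes histamine, were higher, and the chemokines Ccl3 (-2.36) and Ccl4 (-3.70) were lower. Without those droplets 2 of 5 were higher and 2 lower. Padi4, the enzyme that citrullinates histones in neutrophil extracellular traps, was among the 15 largest differences at 5.75, with Chil1 (7.93) and AA467197 (6.86).

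Transcription factor genes were mixed, with 5 higher and 2 lower of 12 tested and a median of 0.50 (-0.01 and 3 higher under library-size scaling). After Cebpe and Mxd1, Spi1, which encodes PU.1, was at 1.09, Junb at 0.81 and Fos at 0.68. Junb and Fos were at 0.30 and 0.11 and did not pass without the B220 or CD3 droplets. Irf8, a factor of monocytes and dendritic cells, was lower at -1.85, and Jun was lower at -2.40. Interferon response genes gave 5 higher of 12 with a median of 0.83, led by Ifitm6 (3.88), with 3 higher without the B220 or CD3 droplets, where Isg15 stood at -0.32, and 2 higher under library-size scaling.

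Cell cycle genes were higher in the gate in 10 of 13 tested members, with a median of 1.91, and in 9 of 12 without the B220 or CD3 droplets. Hmgn2, a nucleosome-binding protein, was at 3.53 and Hmgb2, a chromatin protein abundant in dividing cells, at 2.46. Birc5, survivin, was at 3.01, with 34% of its gate UMIs in 1 droplet. Glycolysis genes were higher in 9 of 11, with a median of 1.10, among them Pygl, glycogen phosphorylase, at 3.35, Pkm at 1.49 and Gapdh at 1.23. Of 12 survival genes, 0 were higher and 3 were lower by this test, all from the Bcl2a1 family: Bcl2a1a (-2.73), Bcl2a1b (-1.42) and Bcl2a1d (-1.32). These 3 are near-identical copies whose reads can be split between them, so each value is uncertain. The 15 ribosomal protein genes gave 0 higher and 2 lower with a median of -0.34, and all 15 were lower without the B220 or CD3 droplets or under library-size scaling.

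Marker genes of NK cells were mostly lower in the gate, and those of monocytes and macrophages in part. NK cell markers were lower in 6 of 7, and Gzma, a granzyme, had a log2 fold change of -6.61. The 15 lowest genes named by rule had 0 UMIs in the gate, so each ratio is a lower bound against 3 UMIs over the whole gate. Gzmb was at least 7.03-fold lower, Klre1 at least 6.11-fold, Klra3 at least 5.89-fold, Klrb1c (NK1.1) at least 5.57-fold, Klrc1 at least 4.97-fold, Klri2 at least 4.81-fold and Klra9 at least 4.38-fold lower, all of them genes of NK cells. Cd209a, a lectin of dendritic cells and monocytes, was at least 9.08-fold lower, F13a1, coagulation factor XIII of monocytes, at least 9.03-fold, and Batf3, a factor of dendritic cells, at least 7.95-fold lower. Adgre1, which encodes F4/80, was at least 5.46-fold lower. The interferon-induced Ifi44 was at least 4.76-fold lower, H2-M2 at least 5.78-fold, Cma1, a chymase, at least 5.24-fold and Pltp, a phospholipid transfer protein, at least 4.22-fold, the last not passing without the B220 or CD3 droplets. Of 11 monocyte markers 6 were lower, with Ccr2 at -3.90 and Fn1 at -5.06, while Ly6c2 did not pass (1.02, adjusted p = 0.0595 by edgeR's quasi-likelihood test). Of 10 macrophage markers 6 were lower and 1 higher, Slc40a1, the iron exporter ferroportin, at 1.63, and without the B220 or CD3 droplets 3 of 8 were lower and 1 higher.

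Against all 7008 other droplets, 5416 of them with B220 at 100 or above and CD11b below its limit, 1141 of 10053 genes passed the same test (11.3%), 573 higher (5.7%) and 568 lower (5.65%), with a median log2 fold change of -0.34. All 13 specific granule genes were higher with a median of 7.24, and 16 of 17 late neutrophil genes with a median of 4.18 (14 of 16 without the B220 or CD3 droplets). Ccl6 and Wfdc17, which were not higher against CD11b+ Ly6G-low droplets, were at 2.97 and 1.06 here. Innate receptors were higher in 14 of 18 and adhesion genes in 11 of 13, and without those droplets in 12 of 15 and 9 of 13, with 1 adhesion gene lower. Interferon response genes were higher in 12 of 17, and in 6 of 13 without the B220 or CD3 droplets. All 15 ribosomal protein genes were lower with and without those droplets. B cell markers were lower in 12 of 12, and in 6 of 11 without the B220 or CD3 droplets. That setting takes those 5416 B220 droplets out of the reference too, so these 2 counts have unlike references. With library size as the only scaling, 446 genes were higher and 899 lower.

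The share of droplets with a UMI showed how far granule RNA was spread outside the gate. S100a8 had a UMI in 95.5% of gate droplets, 32.3% of CD11b+ Ly6G-low droplets and 23.0% of those 5416 B220 droplets, which should lack the gene (median depth 1674 UMIs). Thinned to 1000 UMIs each, the shares were 92.1%, 15.3% and 12.5%. Ngp gave 60.7%, 13.5% and 9.18%, Camp 55.1%, 8.41% and 5.39%, and Retnlg 64.0%, 2.94% and 2.71%. The source of the UMIs outside the gate was not tested. The CD11b+ Ly6G-low shares include the 5 droplets described above with at least 50 UMIs of the S100 pair. Mmp9 was found in 43.8% of gate droplets and 0.148% of B220 droplets, and Cxcr2 in 34.8% and 0.886%.

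Within the gate, droplets were divided by early against late genes. For each droplet with at least 5 UMIs of the 6 genes, the log2 ratio of early to late UMIs, with 1 added to each, was called early at 1 or above and late at -1 or below. These calls are ranges of a score and not cell types, and 8 of the 67 droplets scored had a log2 ratio within 2 of 0. The gate held 34 early droplets (38.2%, 17 in each library), 29 late ones (32.6%, 10 in Main1 and 19 in Main2) and 4 in between, all in Main1. The remaining 22, 17 of them with B220 or CD3, had under 5 UMIs of the 6 genes, 6 in Main1 and 16 in Main2. The early genes made up 14.1% of all UMIs in early droplets and 0.273% in late ones. The late genes made up 2.76% in late droplets and 0.139% in early ones. All of these values were fixed by the rule for the states and carry no test, and the same holds for all contrasts of genes between states, since the ratio and the genes come from the same droplets.

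**Figure D3:**
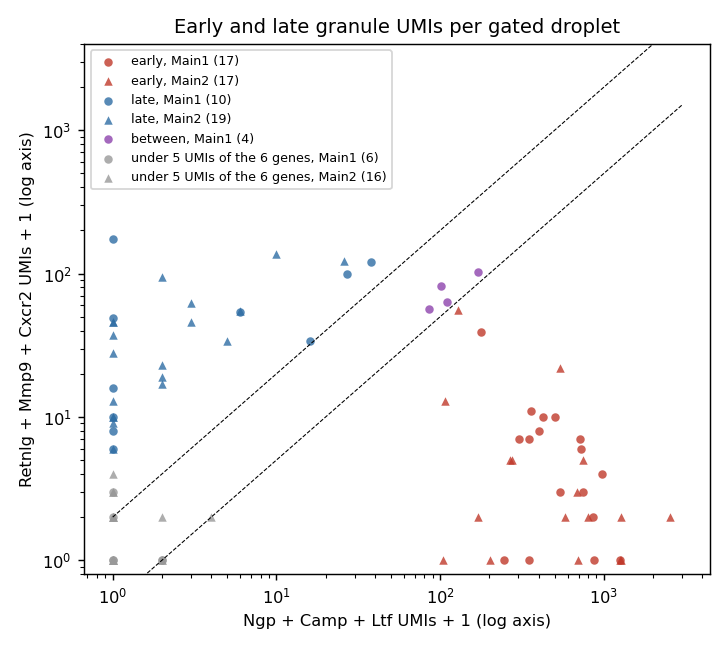
UMIs of the early genes (Ngp, Camp, Ltf) against UMIs of the late genes (Retnlg, Mmp9, Cxcr2) per gate droplet, 1 added to each, on log axes, by library and state. Early droplets reach 2546 early UMIs and late ones 173 late UMIs, with 4 droplets in between.

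The trios did not behave alike droplet by droplet. Ngp UMIs in early droplets were 98, 286 and 751 (lowest, median and highest) in Main1 and 0, 339 and 1556 in Main2, and in late droplets 0, 0 and 29 and 0, 0 and 23. Camp UMIs were 63, 150 and 447 and 20, 211 and 908 in early droplets, against highest values of 7 and 4 in late ones. Both genes are part of the rule for the states, so their separation of nearly every droplet was largely fixed by it. Retnlg UMIs were 3, 37.5 and 173 in late droplets of Main1 and 4, 29 and 129 in Main2, against medians of 2 and 1 in early droplets, whose highest values of 32 and 53 overlapped the late range. Cxcr2 had a UMI in 15 of 19 late droplets of Main2 and 3 of 10 of Main1, and in 4 of 34 early ones. Mmp9 separated the droplets little: it had a UMI in 16 of 34 early and 15 of 29 late droplets. Early droplets were deeper, and after thinning to equal depth it had a UMI in 8 of 34 early and 11 of 29 late droplets. Its summed levels were 294 and 143 CPM in early droplets of Main1 and Main2 and 544 and 716 CPM in late ones. Most late-gene UMIs were those of Retnlg. The 4 droplets in between had 52 to 100 Retnlg UMIs beside 43 to 120 Ngp UMIs.

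Among 1156 other genes with at least 30 UMIs in the gate, 54 (4.67%) were over 2-fold higher in early droplets in both libraries and 124 (10.7%) were over 2-fold higher in late ones. The median log2 ratio of early to late was -0.26 over these genes. Without the B220 or CD3 droplets, 3 early and 8 late, the counts were 83 and 124 and the median -0.03. Specific granule genes gave 7 of 13 higher in early droplets and 0 in late ones (median 1.57), including the 3 genes of the rule, and 5 and 1 without those droplets (median 1.28). Cell cycle genes gave 8 of 10 and 0 (median 2.47), and 9 and 0 without those droplets. Late neutrophil genes gave 0 and 11 of 15, including Retnlg and Cxcr2.

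Early droplets held the RNA of granule formation and of chromatin genes, and a minority of them held that of the division genes Stmn1 and Cenpa. Cebpe was at 881 and 1119 CPM in early droplets of Main1 and Main2 and 109 and 0 CPM in late ones, with a UMI in 31 of 34 early and 2 of 29 late droplets. Chil3 was at 1027 and 2381 CPM in early droplets and had 0 UMIs in late ones, a difference of at least 29.1-fold, with a UMI in 27 of 34 early droplets and 26.9% of its gate UMIs in 1 droplet. Lcn2 was at 8439 and 10157 CPM in early droplets of Main1 and Main2 and 1797 and 1334 CPM in late ones, 6.23-fold higher over both libraries. The groups of droplets were thus far apart in Cebpe and Chil3 RNA, and closer in Lcn2. Hmgn2 was at 3801 and 4239 CPM in early droplets of Main1 and Main2 and 436 and 651 CPM in late ones (7.09-fold). Stmn1, a microtubule regulator of dividing cells, and Cenpa, the centromeric histone, had 0 UMIs in late droplets and were at least 4.73-fold and 3.66-fold higher in early ones. They had a UMI in 8 and 10 of 34 early droplets, with 23.4% and 21.6% of their gate UMIs in 1 droplet. H2afz, a histone variant, was 4.8-fold higher, and Ube2s, a ubiquitin-conjugating enzyme of mitosis, had 70 UMIs in early and 3 in late droplets. Lta4h, the enzyme that makes leukotriene B4, was at least 3.34-fold higher. Scp2, a lipid transfer protein, was 6.73-fold higher, and Zmpste24, a prelamin protease, at least 3.01-fold. Ap3s1, a subunit of the vesicle adaptor AP-3, was at 455 and 703 CPM in early droplets of Main1 and Main2 and 0 and 130.1 CPM in late ones. Cybb, the membrane subunit of the NADPH oxidase, was at 1086 and 941 CPM in early droplets of Main1 and Main2 and 436 and 32.5 CPM in late ones (5.49-fold), and without the B220 or CD3 droplets it was at 693 and 42.1 CPM in late droplets, under 2-fold apart in Main1. The azurophil gene Fcnb had 76 UMIs in early droplets, 34% of them in 1 droplet, and 0 in late ones.

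Genes higher in late droplets included the inflammatory mediators Ccl6 and Il1b and the transcription factor genes Junb and Fos. Ccl6 was at 29.4 and 11.9 CPM in early droplets of Main1 and Main2 and 3103 and 3123 CPM in late ones, from 3 UMIs in early and 153 in late droplets. Il1b had 0 UMIs in early droplets and stood at 980.0 and 1269 CPM in late ones, at least 58.9-fold higher, with a UMI in 17 of 29 late droplets. Both were thus low or at 0 in the early droplets of both libraries. Junb was at 117 and 71.4 CPM in early droplets of Main1 and Main2 and 1633 and 3546 CPM in late ones (30.8-fold higher in late droplets). Dusp1, a phosphatase induced by stress, was 26.2-fold higher. Fos was at 103 and 59.5 CPM in early droplets of Main1 and Main2 and 871 and 2212 CPM in late ones. Srgn, serglycin, was at 14.7 and 47.6 CPM in early droplets of Main1 and Main2 and 1307 and 1009 CPM in late ones. For Fos the gap was larger in Main2, and for Srgn in Main1. Selplg, the ligand of P-selectin, had 34 UMIs in late and 3 in early droplets, and the stefin gene Gm5483 had 103 and 1. Stfa2l1 was at least 34.1-fold higher, from 13 late UMIs in Main1 and 20 in Main2, but 1 and 18 without the B220 or CD3 droplets. Ifitm1, an interferon-induced membrane protein, had 0 UMIs in early droplets and 1 in Main1 and 22 in Main2 in late ones, so its difference rests on Main2. Gm5150 was at least 22.7-fold higher and Ifi27l2a 21.7-fold. Csf3r was at 29.4 and 83.3 CPM in early droplets of Main1 and Main2 and 871 and 651 CPM in late ones. Mcl1, the survival factor that neutrophils depend on, was at 73.4 and 23.8 CPM in early droplets of Main1 and Main2 and 653 and 455 CPM in late ones. Clec4e was 20.1-fold higher and Msrb1, a methionine sulfoxide reductase, 5.38-fold.

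**Figure D4:**
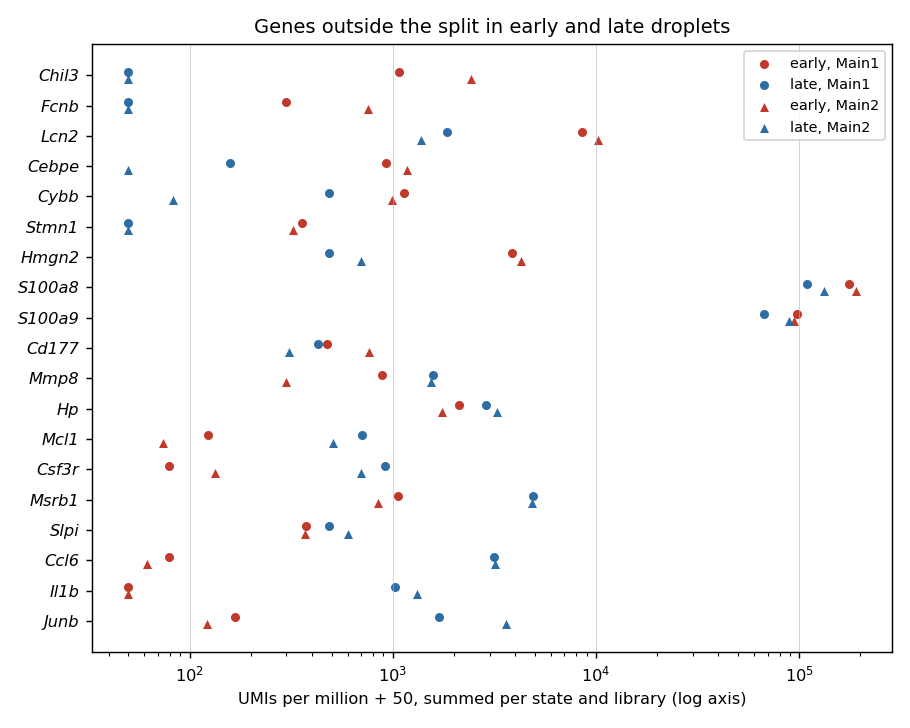
CPM of 19 genes in early (red) and late (blue) droplets, with 50 added, on a log axis, 1 point per library (circles Main1, triangles Main2). Chil3 is at 0 in late droplets and Il1b at 0 in early ones, both drawn at 50, while S100a8 and S100a9 lie near the right edge in both states.

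Genes of the same lists were not uniform between the states. Mmp8, listed with specific granules, was at 837 and 250.0 CPM in early droplets of Main1 and Main2 and 1524 and 1497 CPM in late ones, 2.94-fold higher in late droplets though not over 2-fold in Main1. Hp was at 2069 and 1691 CPM in early droplets of Main1 and Main2 and 2831 and 3221 CPM in late ones (1.65-fold). Cd177 was at 426 and 714 CPM in early droplets of Main1 and Main2 and 381 and 260.3 CPM in late ones, with the larger gap in Main2. Wfdc21 was 2.34-fold and Anxa1 3-fold higher in early droplets. S100a8 was 1.48-fold and S100a9 1.18-fold higher in early droplets, so calprotectin RNA was abundant in both states. Without the B220 or CD3 droplets the log2 ratio of S100a9 was 0.26 in Main1 and -0.17 in Main2. The S100 pair made up 28.0% of UMIs in early droplets, 34.6% in those between and 20.5% in late ones, and 28.6% and 25.5% in early and late droplets without B220 or CD3. S100a11 was 3.17-fold higher in late droplets, and S100a6 was at 998 and 488 CPM in early droplets of Main1 and Main2 and 3321 and 4359.7 CPM in late ones.

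The states differed in RNA content. Median UMIs were 3971 per early droplet (3670 in Main1 and 4377 in Main2) and 1629 per late droplet (1803 and 1393), with 2348.5 in the 4 between. Thinned to 1000 UMIs, early droplets had a median of 363 genes and late ones 426, while the 22 with under 5 UMIs of the 6 genes had 548.5. B cell markers summed to 3556 CPM in early droplets, 9022 in late ones and 16648 in those 22. Of 10 B cell markers with at least 30 UMIs, 4 (Cd79b, Ighd, H2-Aa and Ms4a1) were over 2-fold higher in late droplets in both libraries, and 0 were without the B220 or CD3 droplets.

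Ly6G antibody and Ly6g RNA went in opposite directions between the states. Ly6G antibody counts in early droplets were 499, 1009 and 1927 (lowest, median and highest) in Main1 and 210, 647 and 1658 in Main2. In late droplets they were 1264, 2003.5 and 3648 in Main1 and 1363, 2183 and 3304 in Main2. Late droplets were the higher in both libraries, with some overlap: 8 of 34 early droplets reached the lowest late count and 9 of 29 late droplets lay at or under the highest early one. Medians over both libraries were 896.5 and 2158, and 882 and 2183 without the B220 or CD3 droplets. The 4 droplets between had a median of 1466.5 (1291 to 1909). Ly6g RNA (chr15:75155240-75159126, plus strand) was at 1967 and 1655 CPM in early droplets of Main1 and Main2 and 1034 and 716 in late ones, 2.15-fold higher in early droplets over both libraries. Without the B220 or CD3 droplets the levels were 1980 and 1672 CPM in early and 1472 and 925 CPM in late droplets, a smaller gap. Over all droplets of the states it had a median of 7 UMIs per early droplet (0 to 20, with a UMI in 33 of 34) and 0 per late droplet (0 to 7, with a UMI in 13 of 29, or a median of 1 and 12 of 21 without B220 or CD3). Since the gate selects on Ly6G, droplets under 200 counts are missing from this contrast, among them the 4 early-gene droplets at 14 to 185 counts described above.

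**Figure D5:**
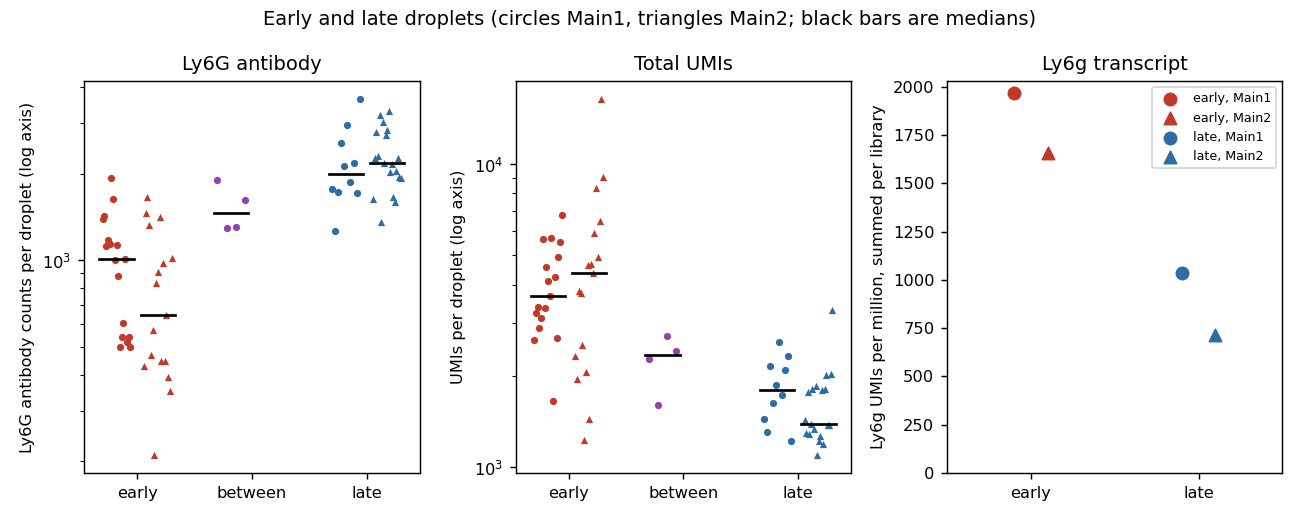
Ly6G antibody counts and total UMIs per droplet (log axes, points are droplets, bars medians), and Ly6g transcript in CPM per state and library, for circles in Main1 and triangles in Main2. Late droplets have Ly6G medians of 2003.5 and 2183 in Main1 and Main2, above 1009 and 647 in early droplets, while their median UMIs of 1803 and 1393 lie below 3670 and 4377.

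Spearman's rho between the log2 ratio of early to late UMIs and Ly6G counts was -0.816 over 31 droplets of Main1 and -0.802 over 36 of Main2, and -0.913 over 25 and -0.796 over 31 without the B220 or CD3 droplets. Much of this was the step between the states. Within early droplets rho was -0.814 in Main1 and -0.282 in Main2, and within late droplets 0.455 in Main1 and -0.310 in Main2. With total UMIs, over all droplets scored, rho was 0.794 and 0.776. These points share a library and depth, so the correlations are descriptions with no p. Total antibody counts moved with the states as well, with medians of 3044 in early and 6701 in late droplets (3002 and 6082 without the B220 or CD3 droplets). Ly6G was 2182 of every 10000 antibody counts in early droplets and 3137 in late ones, or 2642 and 3463 without those droplets, so its share was also higher in late droplets.

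Other antibodies were not equally shifted. CD11b, the other gate antigen, had medians of 817 in early and 1867 in late droplets, Ly6C 96 and 369, and CD45, the pan-leukocyte phosphatase, 224 and 538. CD44 medians were 680 and 932, and CD16/32 medians 169.5 and 198. CD106 (15 and 9) and CD71, the transferrin receptor of dividing cells (12 and 9), were the other way round at counts too low to weigh. Per 10000 antibody counts, CD44 was at 1588 in early and 1306 in late droplets and CD16/32 at 413 and 308, so both were the other way round on that scale. CD11b was at 2064 in early and 2498 in late droplets on that scale, and CD45 at 701 and 772. Without the B220 or CD3 droplets CD11b was at 2630 and 2747, close together, and CD45 at 751 and 714, the other way round. Ly6C was at 1591 and 699 on that scale, and at 497 and 794 without the B220 or CD3 droplets, where 1 early droplet with 17023 Ly6C counts is left out. Itgam RNA, which encodes CD11b, gave no common direction, at 279 and 119 CPM in early and 54.4 and 228 CPM in late droplets of Main1 and Main2.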

How the data were processed

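Both deposited tables held whole-number counts with no normalization, per the file values: UMI counts of 11713 genes and counts of 30 antibodies in 7097 droplets. Cell Ranger 3.0.2, bcl2fastq and the mm10 build are named in the submitters' processing notes, and no tool is named there for the antibody counts. Droplet names beginning with m1 or m2 were read as Main1 and Main2. The 4 RNA and 4 antibody samples of a source could not be told apart in the tables, so each source was 1 library. The libraries held 7964712 and 10174799 UMIs and shared 14 cell barcodes. No mitochondrial gene was analysed here. Of 11713 gene identifiers, 11693 matched the GENCODE vM21 annotation of GRCm38 (mm10), whose 1-based coordinates are printed.

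UMIs were summed per library and population. Genes with at least 50 UMIs were tested by edgeR 4.0.16 (R 4.3.3) with trimmed-mean scaling, quasi-likelihood tests and the library as a block, at a Benjamini-Hochberg adjusted p under 0.05. The block pairs the populations, since each library supplied droplets to both. It left 1 residual degree of freedom, with prior degrees of freedom of 9.99 for the comparison with CD11b+ Ly6G-low droplets and infinite for that with all other droplets. The variance behind each p was thus mostly pooled over genes in the first comparison and wholly pooled in the second. On simulated counts for the first comparison (4867 genes), 65.9% of genes changed 4-fold were recovered and 12.9% of those changed 2-fold. For the comparison with all other droplets (9919 genes) these shares were 38.4% and 6.12%. The simulation gave every gene the same dispersion and both populations a shared profile apart from the changed genes, so recovery in the real counts can differ. Genes were named if they were markers, members of the gene lists, among the 15 largest differences each way with at most 25% of UMIs in 1 droplet, or among the 12 largest each way between early and late droplets by log2 of (CPM + 50). One listed gene is not reported here. Members and lists were chosen with earlier results of these data known. Ratios against 0 UMIs use 3 UMIs over the group. Alternatives were DESeq2 1.42.0, other scalings, filters, gates and thinning, and each library alone. Tables used pandas 2.3.3 and scipy 1.17.1.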

Additional observations from a re-analysis of the deposited data

How the results depend on the processing

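The count of genes called against CD11b+ Ly6G-low droplets, 526, became 1206 with library size as the only scaling, 244 with DESeq2 (43 of them lower, with 2503 adjusted p-values missing) and 861 without droplets over 20000 antibody counts (475 higher and 386 lower). Without the B220 or CD3 droplets it was 682, with 351 higher and 331 lower. Lowering the Ly6G limit to 100 gave 494 (245 higher and 249 lower). The fit with no replicate block gave 548 genes against 526 with the library as a block, and 1090 against 1141 for all other droplets. In the latter comparison DESeq2 called 568 (422 higher and 146 lower), and DESeq2's size factors within edgeR gave 566 higher and 320 lower. The alternative without droplets over 20000 antibody counts, and that without B220 or CD3 for the states, were chosen after seeing the data. The cause of these shifts was not tested. Over 33 named genes in the first comparison, 341 alternative values kept direction and call, 2 lost the call and 0 reversed. The 2 were H2-M2 with no block (-7.92) and Pltp without the B220 or CD3 droplets (-6.82). Values with no adjusted p were left out of these counts. They include the DESeq2 values of all 15 lowest genes, which thus have no DESeq2 call. With each library alone, 60 of 66 values for these genes, on the scale of log2 of (CPM + 10), moved by more than the spread between libraries. That scale lacks the trimmed-mean scaling and shrinks large ratios, so a shift from the edgeR fold change was built in. Retnlg, for example, was at 8.46 in Main1 and 8.07 in Main2 on it, against 9.96 by edgeR. The count of 60 thus cannot show whether the libraries differed. For 24 genes between the states, 162 values stayed within that spread, 30 moved and 0 reversed, and with each library alone 45 stayed and 3 moved.

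The gate held 1.49% of droplets at a Ly6G limit of 100. Among droplets without B220 or CD3 it held 61 (4.13%). Early droplets were 50.8% of those 61. Late droplets were 22.5% of the gate after thinning to 500 UMIs. With 1 library at a time the share in the gate ranged from 1.16 to 1.33%, early droplets from 32.7 to 45.9% and late ones from 27.0 to 36.5%. The ratio of late to early Ly6G medians ranged from 1.99 to 3.37 (2.41 over both) and that of early to late UMIs from 2.04 to 3.14 (2.44 over both). Depth limits the genes read in 29 late droplets of 1629 median UMIs, and the number of libraries limits every p-value.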
